A study of Mus musculus with 3 samples.

Results

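GABA subcluster 18 is a small group of nuclei from the mouse lateral septum whose listed gene of largest log2 fold change is the transcription factor gene Pax6. Its members here are the 50 genes that the authors' deposited table of GABA subcluster markers lists for cluster 18, out of 1100 rows and 705 different genes over 22 subclusters. The tissue came from 8 naïve adult male C57BL/6J mice, littermates aged 3 months and given no treatment. It was taken as punches 500 µm wide from sections 200 µm thick, and the pooled, fluorescence-sorted nuclei gave 3 droplet libraries of nuclear RNA. All 3 libraries belong to 1 group. The comparison is therefore between the nuclei of subcluster 18 and the other nuclei of the same table. Punches could include medial septum, triangular septum, prefrontal cortex or striatum, per the labels' protocols. The tables hold no values per library or mouse and no numbers of nuclei, so no value below has a replicate error, and the depth is unknown. Because the cluster was built from these same genes, their differences describe it and were not tested.

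The lateral septum is a forebrain region made up mostly of GABAergic projection neurons, which receive hippocampal input and send inhibitory output to the hypothalamus and other targets. Pax6 encodes a paired-box and homeodomain transcription factor that patterns the developing eye and forebrain, and it persists in some mature neurons and in astrocytes. Necab1, the other gene that gives this group its working label, encodes a neuronal calcium-binding protein with an EF-hand. Subtypes of septal neurons are commonly told apart by combinations of transcription factors, adhesion molecules, channels and peptides.

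The table lists 50 of 20044 genes for subcluster 18 (0.249%), and 25 of them (0.125%) had a log2 fold change of at least 2. A log2 fold change here is the authors' average for subcluster 18 over all other GABA nuclei, and detection is the percentage of nuclei with any read of the gene. The log2 fold changes of the 50 ran between 1.01 for the teneurin gene Tenm1 and 5.29 for Pax6 in the authors' deposited table, with a median of 2.01, against a median of 1.67 over all rows of the table. A gene absent from the list may still differ, since the list stops at 50 genes.

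Pax6 was detected in 23.0% of the nuclei of subcluster 18, against 0.6% of the other GABA nuclei, in the authors' deposited table. In 77.0% of the nuclei of the subcluster that it labels, the gene was not detected. Pax6 was listed for no other GABA subcluster. Necab1 was detected more widely, in 71.5% of the nuclei of subcluster 18 against 15.3% of the others in the authors' deposited table, with a log2 fold change of 2.83. It was not restricted to subcluster 18, because the same table lists it for subclusters 7, 15, 20 and 21 as well. In the authors' deposited table Necab1 was detected in 82.9% of the nuclei of subcluster 21, 49.2% of those of subcluster 15, 45.6% of those of subcluster 20 and 37.4% of those of subcluster 7. By detection subcluster 18 was thus second to subcluster 21 among the subclusters that list Necab1. Pax6 lies on chromosome 2 and Necab1 on chromosome 4 (GRCm38, GENCODE M21).

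**Figure D1:**
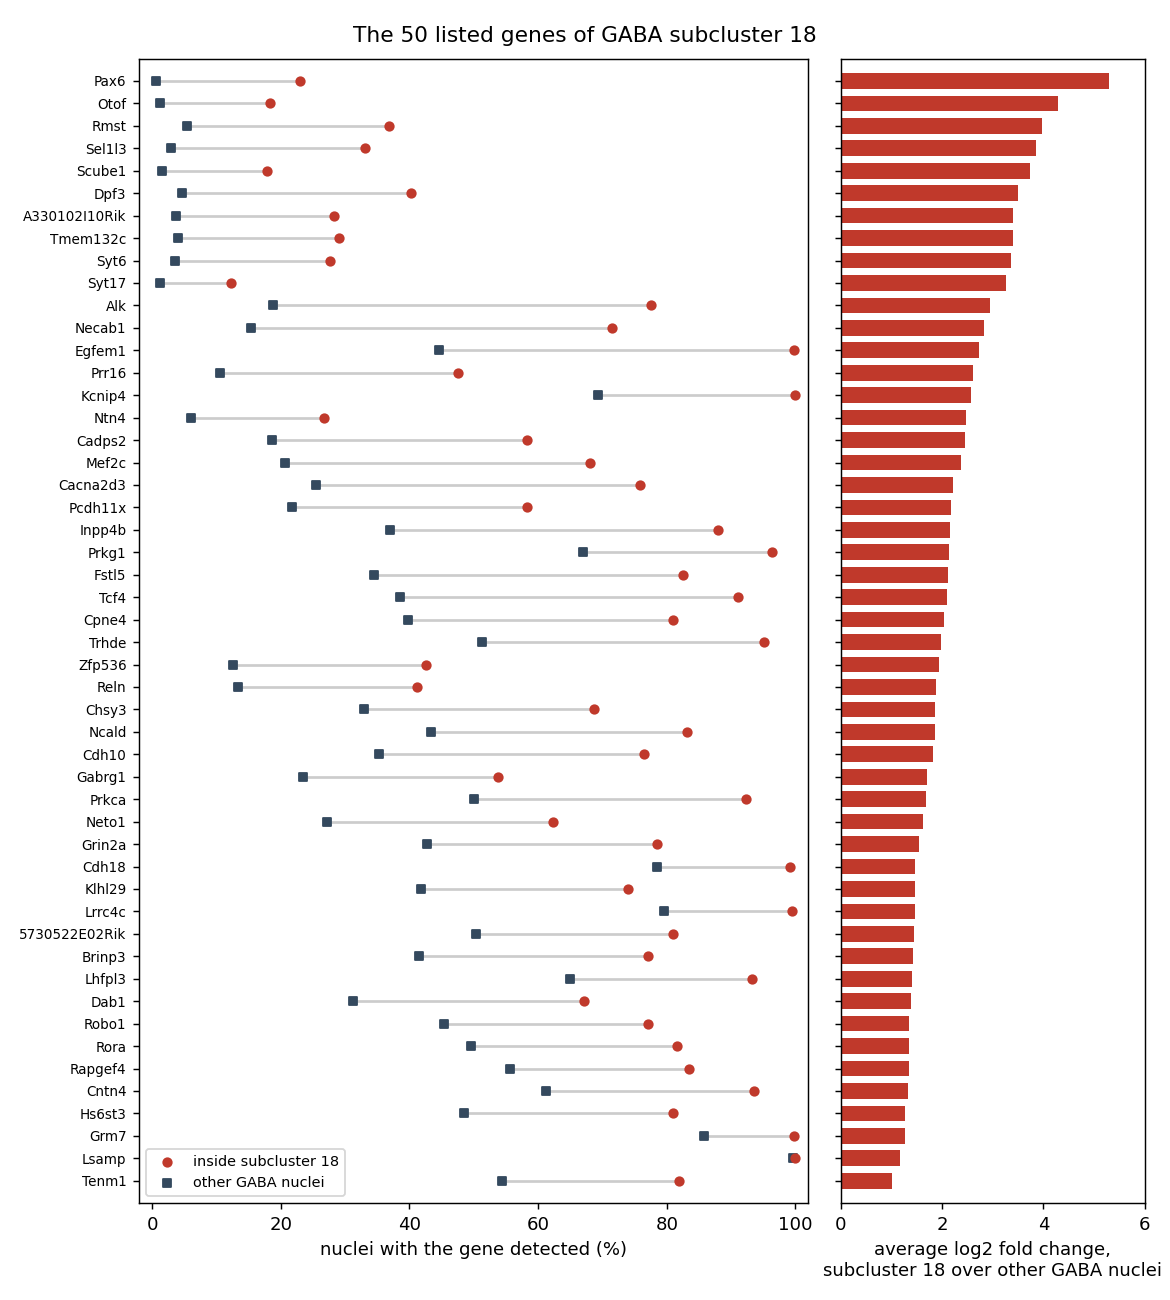
Detection (left, percentage of nuclei; circles for nuclei inside subcluster 18, squares for the other GABA nuclei) and average log2 fold change (right, subcluster 18 over the other GABA nuclei) of the 50 listed genes in the authors' deposited table, ordered by log2 fold change. The genes at the top are found in few nuclei outside, as with Pax6 at 23.0% inside against 0.6% outside. Detection outside is higher near the bottom, for example 48.5% for Hs6st3, 54.4% for Tenm1 and 99.6% for Lsamp.

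The recovered share of subcluster 18 was 1.53% ± 0.0219 of the GABA nuclei (the error is 1 SD and covers only the rounding of the deposited percentages), which ranks 19 of 22 by size. It follows from the fact that overall detection of a gene must come out the same from every subcluster that lists it. With that share, Pax6 was detected in 0.942% of all GABA nuclei, and subcluster 18 held 37.3% of them. Rounding of the Pax6 percentages alone, with the share of subcluster 18 kept fixed, gave 35.4% to 39.4%. The other Pax6-positive GABA nuclei lay in subclusters with no Pax6 among their 50 genes. How they were divided among those subclusters cannot be read from the lists, and how many of them reflect free RNA was not tested. Subcluster 18 held over 10% of the positive GABA nuclei for 8 of its 50 genes, and the median over the 50 was 3.39%. For Otof the share held was 19.2% (18.5% to 19.9% from rounding of the Otof percentages alone), for Scube1 14.7%, for Sel1l3 14.6% and for Syt17 12.8%. For Necab1 it was 6.75%, with the gene detected in 15.3% of the other GABA nuclei.

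Pax6 leads the list, so its 2 promoter windows are shown, with 1 of the listed synaptotagmin family gene Syt6 as an example that holds both motifs searched. Each window spans 250 bases before to 50 bases after an annotated start, from RefSeq on GRCm38.p6, and 37 of the 50 listed genes had at least 1 such window. Capitals mark matches, on either strand, to CAGNTG, an E-box word bound by the family of the listed factor Tcf4, or to AGGTCA, a site bound by the family of the listed factor Rora.
Pax6, chr2:105668646-105668945, plus strand: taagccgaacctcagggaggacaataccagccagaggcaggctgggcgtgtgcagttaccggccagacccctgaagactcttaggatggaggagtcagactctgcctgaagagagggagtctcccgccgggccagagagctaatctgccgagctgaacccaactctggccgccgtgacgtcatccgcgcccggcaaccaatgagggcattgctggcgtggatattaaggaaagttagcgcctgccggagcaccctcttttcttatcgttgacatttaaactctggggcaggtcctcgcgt
Pax6, chr2:105682213-105682512, plus strand: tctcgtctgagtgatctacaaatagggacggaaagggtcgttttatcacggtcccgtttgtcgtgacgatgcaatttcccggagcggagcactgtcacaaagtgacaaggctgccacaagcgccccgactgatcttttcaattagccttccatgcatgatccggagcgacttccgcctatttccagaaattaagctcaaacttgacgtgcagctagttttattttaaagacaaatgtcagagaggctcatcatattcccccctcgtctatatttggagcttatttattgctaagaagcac
Syt6, chr3:103574995-103575294, plus strand: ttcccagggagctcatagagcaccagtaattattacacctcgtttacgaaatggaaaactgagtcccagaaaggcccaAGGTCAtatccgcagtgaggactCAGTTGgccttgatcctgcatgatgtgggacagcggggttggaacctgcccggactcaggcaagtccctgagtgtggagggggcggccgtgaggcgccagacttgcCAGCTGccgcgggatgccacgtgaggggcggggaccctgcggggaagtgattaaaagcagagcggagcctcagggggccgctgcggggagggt
Neither Pax6 window holds either word, and the Syt6 window holds CAGNTG at 2 places and AGGTCA at 1. Of the 53 windows of listed genes, 27 (50.9%) hold CAGNTG, and 16892 of all 32851 windows (51.4%) do. AGGTCA is in 12 of the 53 windows (22.6%) and in 5340 of all windows (16.3%). Matches of the 2 words overlap in 1 of the 53 windows. A match is a run of letters and not a measured binding site.

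Among transcription factor and chromatin genes, Pax6 was followed by Dpf3, Mef2c, Tcf4, Zfp536 and Rora. Dpf3, a subunit of BAF chromatin remodelling complexes, was detected in 40.2% of the nuclei of subcluster 18 against 4.6% of the other GABA nuclei, with a log2 fold change of 3.50, in the authors' deposited table. Mef2c, an activity-regulated MADS-box factor, had 68.1% against 20.6% and a log2 fold change of 2.37 in the authors' deposited table. The basic helix-loop-helix factor gene Tcf4 was detected in 91.1% inside against 38.5% outside (2.10) in the authors' deposited table. The zinc finger gene Zfp536 (1.94, 42.6% against 12.5%) and the orphan nuclear receptor gene Rora (1.35, 81.6% against 49.5%) had smaller log2 fold changes in the authors' deposited table. Of these 6 genes, Pax6 alone was listed for no other GABA subcluster. Of the list of 115 transcription factor and chromatin genes, 4 (3.48%) were listed for subcluster 18, and the other subclusters listed a median of 4 and up to 7. Dpf3 and Mef2c stood outside that list.

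Genes with roles in vesicle release or calcium binding differed in how widely they were detected outside, between 1.2% for Otof and 43.4% for Ncald in the authors' deposited table. Otof encodes otoferlin, a calcium sensor for vesicle release that is best known from inner hair cells of the ear. It was detected in 18.4% of the nuclei of subcluster 18 against 1.2% of the other GABA nuclei, with a log2 fold change of 4.28, in the authors' deposited table. The synaptotagmin family genes Syt6 (3.37, 27.6% against 3.5%) and Syt17 (3.26, 12.3% against 1.3%) ranked close together in the authors' deposited table. Cadps2, which encodes a priming factor for dense-core vesicles, had 58.3% against 18.7% and a log2 fold change of 2.46 in the authors' deposited table. Ncald, a neuronal calcium sensor gene (1.86, 83.1% against 43.4%), and Cpne4, a copine gene whose product binds membranes with calcium (2.04, 81.0% against 39.7%), were found in most nuclei of the subcluster in the authors' deposited table. Otof, Syt17 and Cpne4 were listed for no other GABA subcluster, and Syt6 was also listed for subcluster 13. Of 27 calcium-binding genes, 4 (14.8%) were listed, namely Necab1, Ncald, Syt6 and Cpne4, and no other GABA subcluster listed more than 2. Only 6 of the 27 genes were listed for any GABA subcluster, subcluster 18 included. Necab1 is in that list because of the group's label, and the list was chosen with earlier results of these data known. The count was therefore not free of the choice of genes and was not tested.

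Receptors and secreted or surface signalling genes came next. Alk, a receptor tyrosine kinase gene of the insulin receptor superfamily, had the largest difference in detection of the 50 genes. It was found in 77.6% of the nuclei of subcluster 18 against 18.8% of the other GABA nuclei, with a log2 fold change of 2.94, in the authors' deposited table. It was also listed for subcluster 17 (60.1% inside), subcluster 14 (45.8%) and subcluster 10 (40.2%) in the authors' deposited table, all below subcluster 18. Scube1, which encodes a secreted and surface protein with EGF-like and CUB domains, had 17.8% against 1.6% and a log2 fold change of 3.73 in the authors' deposited table. Egfem1, a gene for a protein with EGF-like and EMI domains, was detected in 99.7% of the subcluster's nuclei against 44.6% of the others (2.73) in the authors' deposited table. Sel1l3 (3.85, 33.1% against 3.0%) and Tmem132c (3.40, 29.1% against 4.1%), both encoding membrane proteins, had low detection outside in the authors' deposited table.

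Trhde, the gene of the surface enzyme that degrades thyrotropin-releasing hormone, was detected in 95.1% inside against 51.2% outside (1.98) in the authors' deposited table. The extracellular glycoprotein gene Reln was found in 41.1% of the nuclei of subcluster 18 against 13.4% of the others (1.88), and Dab1, the gene of the adaptor through which reelin receptors signal, in 67.2% against 31.2% (1.39), in the authors' deposited table. Both were also listed for other subclusters, Reln for 1 and 16 and Dab1 for 6, 14 and 19. The follistatin-like gene Fstl5 had 82.5% against 34.5% and a log2 fold change of 2.12 in the authors' deposited table. Of the 38 receptors for monoamines, acetylcholine, cannabinoids and purines, 0 were listed for subcluster 18, as were 0 of 56 neuropeptide and hormone receptors and 0 of 68 growth factors, morphogens and their receptors. The other subclusters listed medians of 1, 1 and 2 genes of these 3 lists, so that few were listed in most of them. Of 46 neuropeptides and secreted signals, the 1 listed gene was Cpne4, which is not a peptide and also counts among the calcium-binding genes. Pdyn, Sst and Nts were not listed.

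Amino acid receptors and channels were represented by genes detected in many GABA nuclei. Of 45 amino acid receptor genes, 3 (6.67%) were listed, and the other subclusters listed a median of 1 and up to 5. In the authors' deposited table these were the GABA-A receptor γ-subunit gene Gabrg1 (1.70, 53.7% against 23.4%), the NMDA receptor subunit gene Grin2a (1.55, 78.5% against 42.7%) and the metabotropic glutamate receptor gene Grm7 (1.27, 99.7% against 85.8%). Neto1, which encodes an auxiliary protein of ionotropic glutamate receptors, had 62.3% against 27.2% (1.63) in the authors' deposited table. Gabrg1 and Grin2a were listed for no other GABA subcluster. In the authors' deposited table of all nuclei, Grin2a was also listed for broad clusters 7 (88.5% inside) and 15 (89.1%). Gabrg1 was also listed for broad cluster 2 (39.8%) and for Sst subcluster 7 (39.3%) in the authors' deposited tables. Kcnip4, the gene of an accessory subunit of A-type potassium channels, was detected in 100% of the nuclei of subcluster 18 against 69.3% of the others (2.57) in the authors' deposited table. Cacna2d3, an auxiliary calcium channel subunit gene, had 75.8% against 25.5% (2.21) in the authors' deposited table. Together with Tmem132c, which is no established channel gene, these made 3 (3.26%) of the list of 92 ion channel and related genes, against a median of 2 and up to 7 in the other subclusters.

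Adhesion, guidance and matrix genes mostly had small log2 fold changes on high detection. Of 97 synaptic adhesion genes 4 were listed, of 37 cadherins and protocadherins 3, of 52 axon guidance genes 2 and of 87 matrix and proteoglycan genes 2. The other GABA subclusters listed medians of 3, 1, 1 and 2 genes of these lists in the same order, and up to 10, 4, 4 and 5. The protocadherin gene Pcdh11x (2.18, 58.3% against 21.7%), which lies on chromosome X, and the classical cadherin gene Cdh10 (1.83, 76.4% against 35.3%) had the larger log2 fold changes of the 3 listed cadherin superfamily genes in the authors' deposited table. Ntn4, a netrin gene, stood out in the authors' deposited table by its low detection outside (2.48, 26.7% against 6.1%), and the guidance receptor gene Robo1 had 77.0% against 45.3% (1.35). Both Ntn4 and Robo1 were listed for no other GABA subcluster. Chsy3, a chondroitin sulphate synthase gene (1.86, 68.7% against 33.0%), and Hs6st3, a heparan sulphate sulphotransferase gene (1.28, 81.0% against 48.5%), represented sugar chain synthesis in the authors' deposited table. The adhesion genes Cdh18 (1.47, 99.1% against 78.5%), Lrrc4c (1.46, 99.4% against 79.6%), Cntn4 (1.33, 93.6% against 61.3%), Lsamp (1.18) and Tenm1 (1.01, 81.9% against 54.4%) had smaller log2 fold changes in the authors' deposited table. Lsamp was detected in 100% of the nuclei of subcluster 18 against 99.6% of the others, so that its listing rests on its level and not on its detection.

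Kinases and other signalling enzymes contributed 4 of 87 list genes (4.6%), against a median of 2 and up to 7 in the other subclusters. Inpp4b, a phosphoinositide phosphatase gene, was detected in 88.0% inside against 36.9% outside (2.15) in the authors' deposited table. The cyclic GMP-dependent kinase gene Prkg1 (2.13, 96.3% against 67.0%), the protein kinase C gene Prkca (1.68, 92.3% against 50%) and Rapgef4, which encodes a cyclic AMP sensor that activates Rap (1.35, 83.4% against 55.6%), were found in most nuclei of the subcluster in the authors' deposited table. The 2 members annotated as long intergenic non-coding RNAs were Rmst (3.97, 36.8% against 5.5%) and A330102I10Rik (3.41, 28.2% against 3.7%) in the authors' deposited table. The remaining members were Prr16 (2.62, 47.5% against 10.6%), Klhl29 (1.46, 73.9% against 41.8%), 5730522E02Rik (1.45, 81.0% against 50.3%), Brinp3 (1.42, 77.0% against 41.5%) and Lhfpl3 (1.40, 93.3% against 64.9%) in the authors' deposited table.

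The 50 genes as a set were broadly detected and long. Their median detection was 76.7% inside subcluster 18 against 34.9% outside, each the highest of the 22 subclusters. Over all rows of the GABA table the medians were 38.8% and 14.2%. In 13 of the 50 genes, detection outside was at least 50%, and their log2 fold changes ran between 1.01 and 2.57. In the 11 genes with detection outside under 10%, they ran between 2.48 and 5.29. The median genomic span of the 50 genes was 418 kb, also the highest of the 22 subclusters, with subcluster 14 next at 373 kb. All genes of the GABA table had a median span of 154 kb, and protein-coding genes of the annotation one of 17.4 kb. The counts of transcripts per nucleus in each subcluster are not in the tables used here, and their part in the high detection was not tested.

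**Figure D2:**
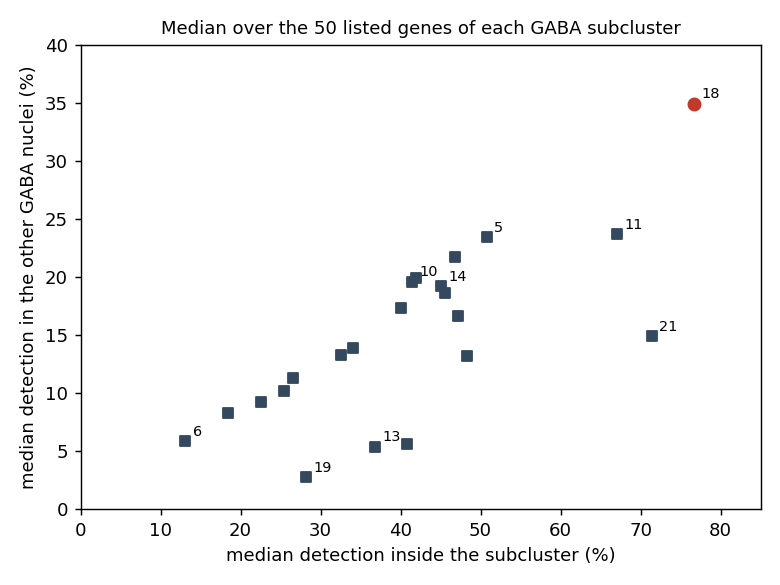
Median detection inside each GABA subcluster (x axis, %) against median detection in the other GABA nuclei (y axis, %), each over the 50 genes listed for that subcluster in the authors' deposited table. Each point is 1 of the 22 subclusters, some are labelled by number, and subcluster 18 (circle) lies at 76.7% and 34.9%, the highest on both axes.

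Of the 50 genes, 17 were listed for no other GABA subcluster, a count that ranks 15 of 22 (equal with subcluster 12), and 33 were listed for at least 1 other. Of those 33, the log2 fold change was largest in subcluster 18 for 20, and detection inside was highest there for 22. Subclusters 10 and 14 each shared 12 genes with subcluster 18, and no other GABA subcluster shared more than 4. Alk, Fstl5, Brinp3, Mef2c and Kcnip4 were listed for all 3. Subclusters 10 and 14 are larger, with 4.28% and 2.69% of GABA nuclei by the same recovery.

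Beside subcluster 10, detection was higher in subcluster 18 for 9 of the 12 shared genes, and beside subcluster 14 for 10 of the 12. Higher detection in subcluster 18 was common for shared genes, in 57 of all 74 pairs of a shared gene and another GABA subcluster. Dpf3 was detected in 40.2% of the nuclei of subcluster 18 and 18.1% of those of subcluster 10, and Tmem132c in 29.1% and 19.8%, in that order, in the authors' deposited table. Detection of Tcf4 was 91.1% in subcluster 18 and 73.7% in subcluster 10 in the authors' deposited table. Hs6st3 (81.0% in subcluster 18, 88.9% in subcluster 10) and Brinp3 (77.0% in subcluster 18, 82.7% in subcluster 10) went the other way in the authors' deposited table. Beside subcluster 14, Cacna2d3 was detected in 75.8% of the nuclei of subcluster 18 and 46.3% of those of subcluster 14, and Cadps2 in 58.3% and 40.3%, in the authors' deposited table. Rmst was closer and went the other way by detection, with 36.8% in subcluster 18 (log2 fold change 3.97) and 41.3% in subcluster 14 (3.73) in the authors' deposited table. These differences have no replicate error and were not tested.

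**Figure D3:**
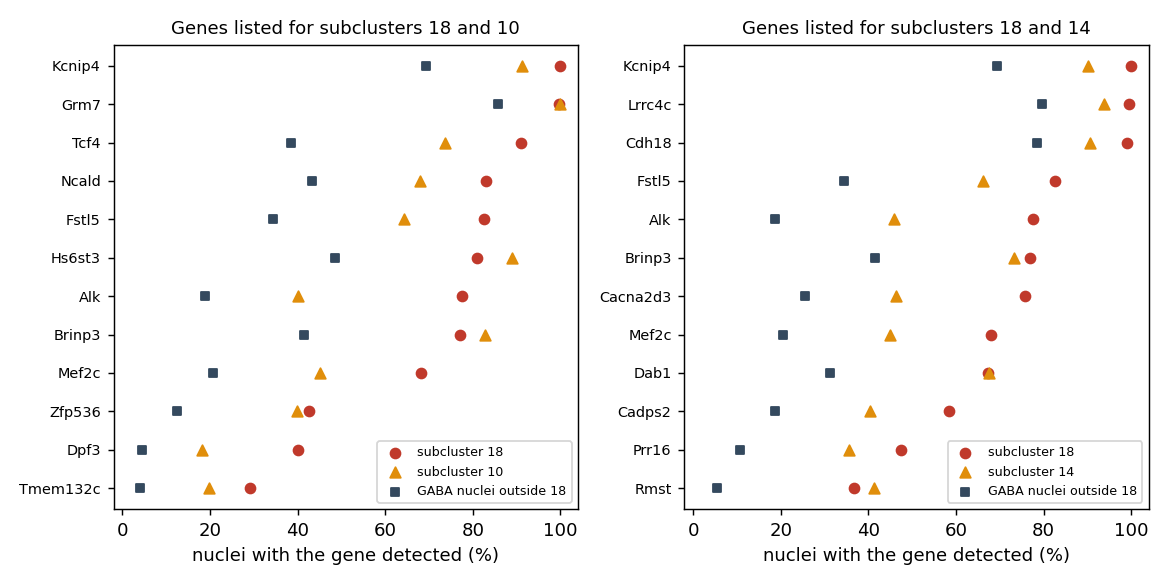
Detection (x axis, % of nuclei) of the 12 genes listed for both subclusters 18 and 10 (left) and the 12 listed for both 18 and 14 (right) in the authors' deposited table; circles are subcluster 18, triangles the other subcluster, and squares all GABA nuclei outside 18. Alk lies at 77.6% in subcluster 18, against 40.2% in subcluster 10 and 45.8% in subcluster 14.

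In the table of all nuclei, broad cluster 22 listed 46 of the same 50 genes, among 50 of 20574 genes (0.243%). Both tables were made from the same libraries, so the overlap is a check of identity and not a separate result. Detection inside differed between the 2 tables by between -1.8 and 2.2 points, broad cluster 22 minus GABA subcluster 18. Pax6 was detected in 24.9% of the nuclei of broad cluster 22 against 1.0% of all other nuclei, with a log2 fold change of 4.75, in the authors' deposited table. Necab1 had 71.8% against 14.9% (2.97) and Alk 79.1% against 17.0% (3.15) in the authors' deposited table. Dab1, Rora, Syt17 and Tenm1 were listed for GABA subcluster 18 and not for broad cluster 22. Listed for broad cluster 22 and not for subcluster 18 were Clmp (2.12, 25.2% against 6.6%), Atp2b4 (1.28, 66.1% against 36.3%), Pld5 (1.23, 82.1% against 39.5%) and Man1a (1.15, 94.4% against 68.8%) in the authors' deposited table. Broad cluster 22 held 1.07% ± 0.023 of all nuclei (SD from rounding), which is 69.9% ± 1.81 of the share of subcluster 18 among GABA nuclei. The 2 shares have different denominators, so this ratio is not the part of subcluster 18 found in broad cluster 22.

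The broad table sets the cluster against all other nuclei and not against GABA nuclei alone, and the nuclei inside were not identical either, since detection inside also differed. Detection outside was higher in the broad table for 29 of the 46 shared genes, lower for 16 and equal for 1. The largest difference upward was that of Tcf4, with 46.7% outside broad cluster 22 and 38.5% outside GABA subcluster 18 in the authors' deposited table. Mef2c followed with 27.2% outside broad cluster 22 and 20.6% outside GABA subcluster 18 in the authors' deposited table. Mef2c itself was detected in 90.3% of the nuclei of broad cluster 7 and 75.6% of those of broad cluster 15 in the authors' deposited table. Cluster 7 lists the cortical glutamate transporter gene Slc17a7, and cluster 15 does not. The part of these clusters in the difference outside was not tested. The largest difference downward was that of Trhde, with 46.4% outside broad cluster 22 and 51.2% outside GABA subcluster 18 in the authors' deposited table. The log2 fold change of Rmst was 2.78 in the broad table and 3.97 in the GABA table, the largest difference of the 46, in the authors' deposited tables.

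**Figure D4:**
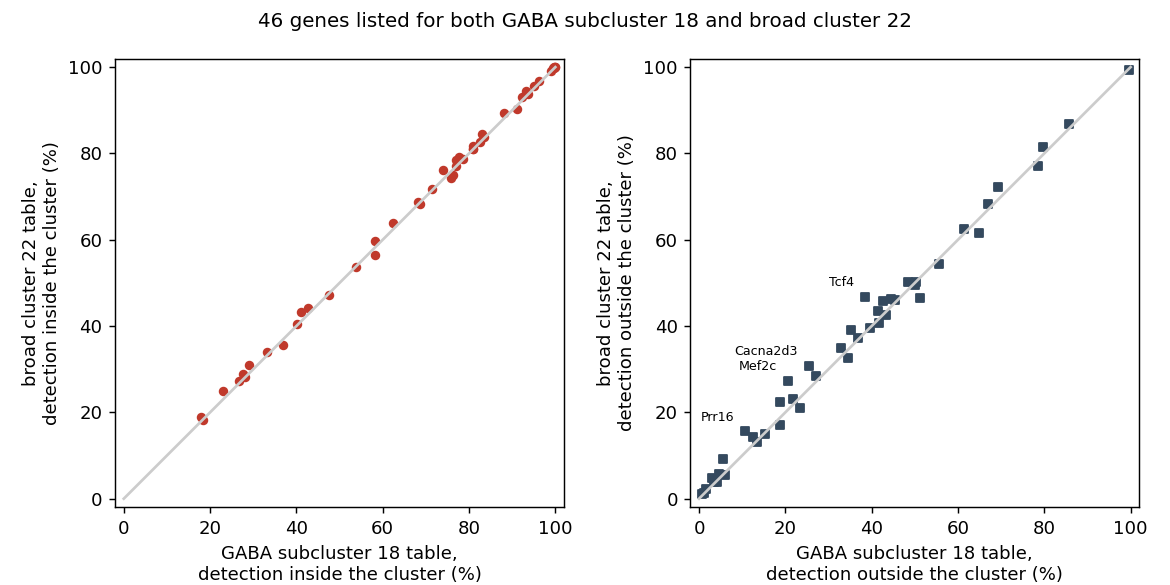
Detection (% of nuclei) of the 46 genes listed for both GABA subcluster 18 (x axes) and broad cluster 22 (y axes) in the authors' deposited tables, inside the cluster (left) and outside it (right), with the line of equality; each point is a gene. Values inside lie within 2.2 points of each other, while outside Tcf4 lies at 46.7% in the broad table and 38.5% in the GABA table.

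With the recovered shares, Pax6 was detected in 1.25% of all nuclei, and broad cluster 22 held 21.2% of them. Rounding of the Pax6 percentages alone gave 20.3% to 22.1%. Otof was detected in 1.58% of all nuclei, of which broad cluster 22 held 12.3%. The other broad cluster that lists Pax6 was cluster 6, where the authors' deposited table gives a log2 fold change of 1.74 and detection of 3.8% inside against 1.1% outside. Broad cluster 6 shared 11 genes with GABA subcluster 18, more than any broad cluster but 22. Broad clusters 7 and 15 followed with 6 each and broad cluster 17 with 5, and clusters 7 and 17 list Slc17a7. In the authors' deposited tables Syt17 was detected in 33.6% of the nuclei of broad cluster 7 against 12.3% of those of subcluster 18. Dab1 had 97.9% against 67.2% in the same order, and Kcnip4 went the other way, with 99.9% against 100%. Broad cluster 6 itself shared 29 listed genes with GABA subcluster 10 and 19 with subcluster 14, although the GABA table lists Pax6 for neither.

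Few markers of other cell types were listed for subcluster 18. Of the lists for astrocytes (10 genes), oligodendrocytes (9), their precursors (9), microglia (8), endothelial or mural cells (9), ependymal cells (7) and migrating neuroblasts (12), 0 genes were listed for subcluster 18 or for broad cluster 22. No gene of the oligodendrocyte, precursor, microglia, endothelial or mural and ependymal lists was listed for any GABA subcluster. Of 13 striatal medium spiny neuron markers, 13 glutamatergic neuron markers and 15 lateral septum GABAergic neuron markers, 0 were listed, nor were any of 10 medial septum markers. The other GABA subclusters listed medians of 0, 0, 1 and 0 genes of these lists in the same order, and up to 8, 1, 4 and 1. Reln was the 1 listed gene of 17 interneuron markers and of 8 markers of Cajal-Retzius or septal glutamatergic neurons. Of 13 markers of the thalamic reticular or prethalamic type 2 were listed, Pax6 and Necab1 themselves, and Pax6 was the 1 listed gene of the intercalated amygdala type (8 genes), the olfactory bulb interneuron type (13 genes) and neural stem cells (9 genes). From the thalamic reticular list to the stem cell list, the other GABA subclusters listed a median of 0 genes each. They listed up to 4, 2, 2 and 1 genes of these lists in the same order. For the interneuron and Cajal-Retzius lists the medians were 1 and 0, with up to 8 and 1. The genes listed from the thalamic reticular list onward were only Pax6 and Necab1, those of the working label. For that reason subcluster 18 is called by its number and by Pax6, with no cell type name. Gad1, Gad2 and Slc32a1, which define GABAergic neurons, were listed for no cluster of either table, so that the GABAergic identity of these nuclei rests on the authors' naming of the table. In the Sst table, 25 of the 50 genes were listed for some subcluster, but no Sst subcluster listed more than 5 of them, and Pax6 was listed for none.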

How the data were processed

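Nuclear RNA of 3 droplet libraries from 1 pool was measured. Seurat 4 and mm10 are named in the submitters' processing notes. The sources used here do not state how reads were aligned, nuclei filtered and clustered, doublets or free RNA handled, or markers tested. Per the file headers, the deposited log2 fold changes are averages, with a pseudocount that is not stated. The authors gave detection as a fraction of nuclei with 3 decimals, which is written here as a percentage. The authors' p-values come from nuclei, which are not independent animals, and were not used to rank genes. The adjusted p-value was the deposited p-value times 20044 in the GABA table and 20574 in the broad table. These multipliers were taken as the numbers of genes tested. Since no file gives counts, depth is unknown and no counting interval was computed.

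Shares of nuclei were solved by least squares from 258 genes listed in 2 or more GABA subclusters and from 286 in the broad table, with errors propagated from rounding. The solver was also run on simulated data with random detection values, unlike those of marker genes. That run checked the calculation and not the accuracy of the shares given here. The solved GABA shares sum to 100.76%. All 50 genes were found by symbol in GENCODE M21, whose assembly, GRCm38, is that of mm10. Every one of the 50 genes may be named, with full values for Pax6, Necab1, the 20 of largest log2 fold change found in at least 25% of nuclei and members of a list. The full values of Otof, Scube1, Syt17, Trhde, Chsy3, Neto1, Klhl29, 5730522E02Rik, Brinp3, Lhfpl3 and Dab1, which fall outside that rule, were added after they were seen. The members and lists were chosen with earlier results of these data known. Roles used to order genes outside the lists were assigned after their values were seen. The alternatives were other rankings, a minimum log2 fold change of 2, a minimum detection of 25%, adjusted p under 0.001 and 3 other solutions for the shares. Python 3.11.15 was used with numpy 2.4.6, pandas 2.3.3 and matplotlib 3.10.9.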

Additional observations from a re-analysis of the deposited data

How the results depend on the processing

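The count of genes listed for no other GABA subcluster was 17 of 50. It was 14 of the 25 genes left where every subcluster's rows had to reach a log2 fold change of 2, a larger share of fewer genes, 16 of 46 with detection of at least 25% and 17 of 50 with adjusted p under 0.001. The 46 genes shared with broad cluster 22 became 19 with the minimum of 2, which leaves 25 and 22 genes to compare, and 43 with the minimum detection. The share of subcluster 18 was 1.53%, and 1.5% both with shares made to sum to 1 and with only the 132 genes whose detection differed by at least 20 points. The error given for the share covers rounding alone and not such differences between solutions, so it understates the uncertainty. The part of the Pax6-positive GABA nuclei held by subcluster 18 stayed between 36.9% and 37.3% over these solutions. Of the 20 genes of largest log2 fold change, 18 were also among the 20 highest by ratio of detection but 9 by difference in detection. Pax6 ranked 1 by log2 fold change and by ratio and 42 by difference, where Alk ranked 1, Necab1 2 and Egfem1 3. No paired analysis was possible because the tables hold no values per library. The precision of every value is limited by the unknown number of nuclei, and a difference between mice or libraries could not be seen.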
